A study of Mus musculus with 10 samples.

Results

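Oit1 and its relatives Fam3a, Fam3b and Fam3c make up the FAM3 family, a small group of secreted, cytokine-like proteins, and all 4 genes were measured among the 22180 genes of these mouse jejunum arrays. The set was drawn up around Oit1, which is also called Fam3d, because Oit1 differed between knockout and control arrays. The relatives were added by family membership. Each gene had 1 probe set with a single gene symbol, so no second probe set of this kind was available for a member.

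The knockout mice were Pcyt1aLoxP/LoxP;VilCreERT2, in which tamoxifen switches on a Cre recombinase that the villin promoter restricts to epithelial cells of the gut. The control mice were Pcyt1aLoxP/LoxP without Cre. Both groups were females of 10 to 12 weeks and had tamoxifen for 5 days, high-fat food for 3 days, an overnight fast and then 2 hours of the same food, after which 3 cm of the middle small intestine was taken. RNA from 5 samples per group was read on 1 Affymetrix array each. Pcyt1a encodes the rate-limiting enzyme of phosphatidylcholine synthesis. Cre was absent from the controls, and its own effects therefore cannot be told apart from those of losing Pcyt1a. The piece of gut also holds muscle, stroma and immune cells, in which villin is not active. The labels do not say that each array came from an animal of its own, so every p-value refers to the spread among these 10 samples, technical spread included.

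FAM3 proteins were found in searches for proteins whose predicted fold resembles that of cytokines. They are exported from cells or act within them, and members have been tied to metabolism, to secretion and to changes of epithelial cells into motile cells. Oit1 encodes a protein secreted mainly by the gut, and in mice its level has been linked to feeding and fasting. Fam3b encodes PANDER, a factor first described in pancreatic islets. Fam3c encodes ILEI, an inducer of epithelial-to-mesenchymal transition, and Fam3a encodes a protein described in mitochondria.

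The arrays held the epithelium of the small intestine. The enterocyte genes Sis, Fabp2 and Apoa4 had intensities of at least 9592, 11014 and 11830 on every array, where array medians over all probe sets were 45.8 to 48.1. These genes are active along most of the small intestine and do not tell jejunum from its other stretches. Fabp6, a marker of the ileum, ranged from 19.9 to 2360 between arrays. Pcyt1a had intensities of 192, 177, 191, 151 and 203 on knockout arrays 1 to 5, against 565, 616, 494, 599 and 727 on control arrays 1 to 5. The groups did not overlap, with every knockout array below every control array. Of all genes, 76 passed the test described here as called (limma, adjusted p under 0.05), 38 higher and 38 lower in knockout. Knockout 1 stood apart from the other knockouts in markers of the ileum, the distal small intestine, and control 5 had the lowest level of Paneth cell markers. The differences of the family members are therefore given with and without these arrays.

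The promoters of Oit1 and Fam3c are shown because these are the family members whose knockout and control arrays did not overlap, in opposite directions. Each sequence is the 250 bases before the annotated start, from RefSeq on build GRCm38.p6, and lies on the minus strand. CpG dinucleotides, the bases at which vertebrate DNA is methylated, are in capitals.
Oit1, chr14:8378764-8379013: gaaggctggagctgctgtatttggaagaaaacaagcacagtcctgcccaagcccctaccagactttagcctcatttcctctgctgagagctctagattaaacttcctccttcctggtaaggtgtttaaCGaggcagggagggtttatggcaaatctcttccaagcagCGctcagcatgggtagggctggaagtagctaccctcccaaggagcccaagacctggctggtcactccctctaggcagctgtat
Fam3c, chr6:22356082-22356331: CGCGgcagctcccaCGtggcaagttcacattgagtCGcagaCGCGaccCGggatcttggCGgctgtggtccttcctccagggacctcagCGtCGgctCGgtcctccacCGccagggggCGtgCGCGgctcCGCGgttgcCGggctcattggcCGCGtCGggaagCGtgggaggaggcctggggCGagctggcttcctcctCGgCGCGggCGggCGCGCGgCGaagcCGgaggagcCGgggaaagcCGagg
The Oit1 window held 2 CpGs and was 52.8% G or C, and 29.0% of 32851 mouse promoter windows of this length held that many CpGs or fewer. The Fam3c window held 34 CpGs at 73.6% G or C, and 97.0% of windows held that many or fewer. The first of the Fam3a windows in the table, on chromosome X, held 4 CpGs. Both strands were searched for TATAAA (the TATA box, in 12.4% of windows), CCAAT (33.9%), CACGTG (an E-box, 6.02%), TGANTCA (AP-1, 6.75%), TGATGNAA (ATF4, 3.45%), AGATAA (the site of GATA factors, 9.99%) and CAAAGTCCA (HNF4, 0.38%). Fam3c held 1 match to the CCAAT box and 1 to the E-box, whose middle letters are a CpG, and neither was in the Oit1 window. The other motifs were in neither window.

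Oit1 RNA was higher in all 5 knockout arrays. Its intensities were 1218, 1318, 1107, 1165 and 1249 on knockout arrays 1 to 5, against 666, 514, 456, 493 and 633 on control arrays 1 to 5. The lowest knockout array, knockout 3, lay well above the highest control array, control 1, with a gap of 0.73 on the log2 scale. On that scale Oit1 averaged 10.24 ± 0.10 in knockout arrays and 9.09 ± 0.24 in control arrays (SD, n = 5 each). The difference was 1.15 (SE 0.11, 95% interval 0.90 to 1.39), which is 2.21-fold (1.87 to 2.62). This difference is the value for which the family was picked, so it is a description and no test is drawn from it. It was larger in size than that of 99.6% of genes. In tissue RNA, more cells that express a gene and more RNA per cell cannot be told apart.

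The knockout arrays were close to each other in Oit1, with a range of 0.25 on the log2 scale, against 0.55 in control arrays. Among controls, arrays 1 and 5 were the higher ones and arrays 2, 3 and 4 lay together below them. The spread within groups, pooled over both, was 0.18, where the median over all genes was also 0.18. Oit1 was thus an ordinary gene in its variation between arrays of a group.

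Fam3c, the ILEI gene, stood lower in knockout, opposite to Oit1. Its intensities were 662, 608, 667, 557 and 693 on knockout arrays 1 to 5, against 720, 920, 744, 864 and 905 on control arrays 1 to 5. Every knockout array lay below every control array, but the gap between knockout 5 and control 1 was only 0.06 on the log2 scale. The means were 9.31 ± 0.13 in knockout arrays and 9.69 ± 0.16 in control arrays (SD, n = 5 each), a difference of -0.38 (SE 0.10, 95% interval -0.60 to -0.16), and the level in knockout was 0.769 times that in control. Fam3c was not among the called genes.

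Fam3b, the PANDER gene, had a higher mean in knockout, and the groups overlapped. Its intensities were 1212, 1164, 1106, 989 and 1359 on knockout arrays 1 to 5, against 1091, 1159, 654, 801 and 1034 on control arrays 1 to 5. Controls 3 and 4 were the low arrays, and the other controls lay within the range of the knockouts. On the log2 scale the means were 10.18 ± 0.17 in knockout arrays and 9.86 ± 0.35 in control arrays (SD, n = 5 each), a difference of 0.32 (SE 0.15, 95% interval -0.01 to 0.66) that was not called.

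Fam3a differed least. Its intensities were 129, 122, 125, 127 and 165 on knockout arrays 1 to 5, against 144, 147, 123, 131 and 195 on control arrays 1 to 5. Array 5 was the high one in each group and the remaining arrays lay within a narrow band. The means were 7.05 ± 0.18 in knockout arrays and 7.19 ± 0.25 in control arrays (SD, n = 5 each) on the log2 scale, a difference of -0.14 (SE 0.13, 95% interval -0.42 to 0.14) that was not called. The interval leaves room for a change of up to about 0.42 lower or 0.14 higher on that scale, so it does not show that Fam3a was alike in both groups.

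**Figure D1:**
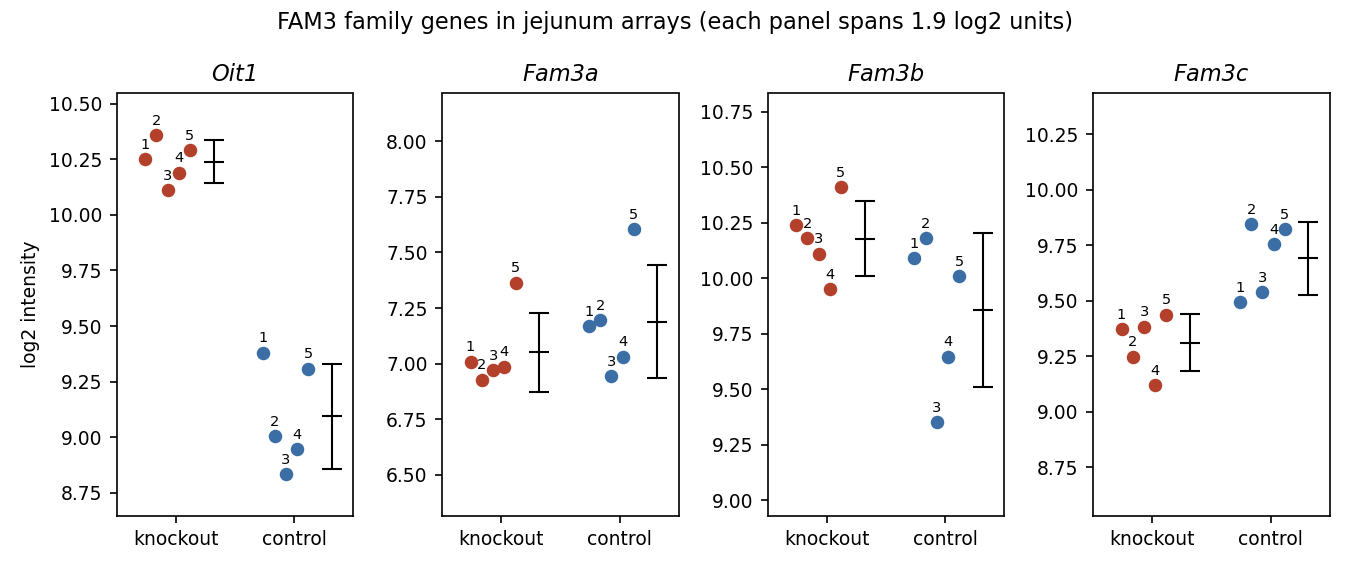
Log2 intensity of the 4 FAM3 family genes on each array, numbered by replicate, with the group mean and SD (n = 5) beside the points; every panel has the same height on the log2 scale. Knockout and control arrays are apart in Oit1 (10.11 to 10.36 against 8.83 to 9.38) and Fam3c (9.12 to 9.44 against 9.49 to 9.85), and overlap in Fam3a and Fam3b.

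In all, 1 of the 4 members was called, Oit1, where the call was made in 0.343% of all genes. The groups did not overlap in 2 of 4, with Oit1 higher and Fam3c lower in knockout, where this held for 2.77% of all genes (1.2% higher and 1.56% lower in knockout). As Oit1 was chosen by this contrast, nothing is read from these counts. The median difference over the 22180 genes was -3.535e-04 on the log2 scale, and the median size of a difference was 0.10. Differences of Oit1 and Fam3c had the same signs, at 1.08 to 1.22 for Oit1 and -0.43 to -0.31 for Fam3c, under all 20 alternative ways of processing, which for groups that do not overlap is no sign of stability where arrays were left out. Fam3b ran from 0.20 to 0.42 and Fam3a from -0.22 to -0.01. Some of the alternatives, such as averaging of probe sets where a gene has 1, could not change an estimate. Without knockout 1 and control 5 together, Oit1 stood at 1.197 (SE 0.13), Fam3c at -0.36 (SE 0.11), Fam3b at 0.35 (SE 0.18) and Fam3a at -0.02 (SE 0.12).

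**Figure D2:**
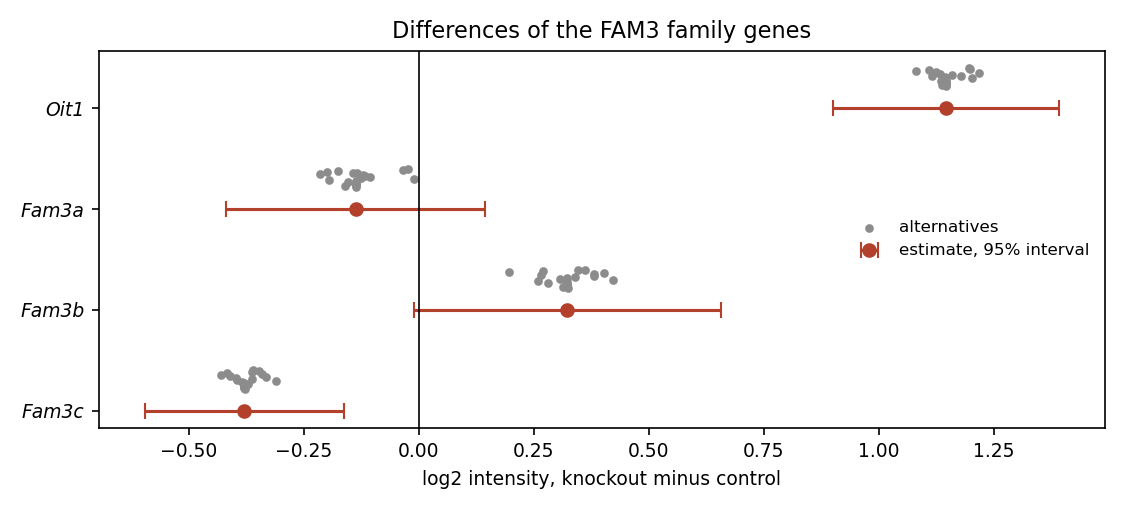
Difference in log2 intensity, knockout minus control, for each family gene, with its 95% interval (red) and the estimates under 20 alternatives (grey). The interval of Oit1 runs from 0.90 to 1.39, that of Fam3c from -0.60 to -0.16, and those of Fam3a and Fam3b cross 0.

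The mean of a list of ileum markers was higher in 4 of 5 knockout arrays than in any control array. The list held 5 measured genes of 6: the bile acid binding protein gene Fabp6, the bile acid transporter genes Slc10a2 and Slc51a, the hormone gene Fgf15 and the vitamin B12 receptor gene Cubn. Their mean, centred on each gene's mean over the arrays, was -1.22, 1.48, 0.79, 0.95 and 1.55 on knockout arrays 1 to 5, against -0.86, -0.14, -0.89, -0.78 and -0.87 on control arrays 1 to 5. Differences between knockout and control were largest for Fabp6, at 3.89 (SE 0.97), and Slc10a2, at 2.23 (SE 0.82), followed by Fgf15 at 1.17 (SE 0.26) and Slc51a at 0.67 (SE 0.17), while Cubn went the other way, at -0.84 (SE 0.19). Of the 5 genes, 0 were called. For markers of the proximal small intestine, 6 measured of 6 with 0 called, the list mean showed the opposite order. It was 0.51, -0.38, -0.19, -0.31 and -0.29 on knockout arrays 1 to 5, against 0.07, -0.06, 0.20, 0.15 and 0.30 on control arrays 1 to 5. Onecut2, a transcription factor gene of the proximal gut, had by far the largest difference, at -1.30 (SE 0.54). Slc40a1 was at -0.28 (SE 0.24), Gata4 at -0.16 (SE 0.10) and Fabp1 at -0.00314 (SE 0.11). Cybrd1 at 0.01 (SE 0.10) and Pdx1 at 0.12 (SE 0.12) went the other way. The median over the proximal list was only -0.08, with 4 lower and 2 higher values. In both lists knockout 1 stood apart from the other knockouts, at the opposite end from them.

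Knockout 1 had the lowest ileum mean of all arrays, and its Oit1 intensity was 1218, within the range of the other knockouts. With the ileum mean as a covariate the Oit1 difference was 1.14 (SE 0.16), against 1.15 (SE 0.11) without it, and it was then outside the called genes, of which this fit left 3. Fam3c stood at -0.38 (SE 0.14) in the same fit. Apart from knockout 1, every knockout array had a higher ileum mean than every control array. Group and ileum mean therefore largely cannot be told apart in this fit. The part of position along the gut in the family's values was not tested.

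**Figure D3:**
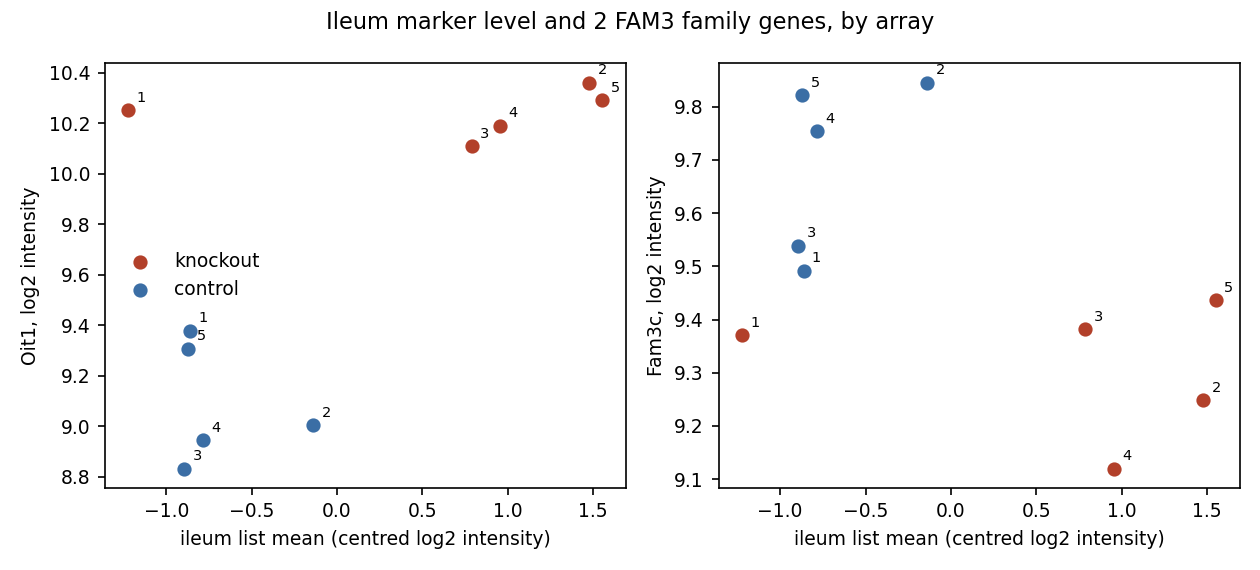
Oit1 and Fam3c (vertical axes, log2 intensity) against the mean of 5 ileum markers (horizontal axis, centred log2 intensity) on each array, numbered by replicate. Knockout 1 lies at -1.22 on the ileum axis, below all controls, and has an Oit1 value of 10.25. The other knockouts lie above all controls on the ileum axis.

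Markers of cell types and of the large intestine were compared in the same way. Of 13 marker lists, knockout and control arrays did not overlap in the list mean of 1, that of the large intestine, at -0.44 to -0.10 in knockout and -0.07 to 0.62 in control. Of its members, 0 of 3 were called. Cyp2c55, a cytochrome P450, had by far the largest difference, at -1.48 (SE 0.34). Aqp8 was at -0.25 (SE 0.11) and Car1, a carbonic anhydrase of the colon, at 0.09 (SE 0.09). Intensities of Aqp8 (21.8 to 36.4) and Car1 (11.9 to 16.1) lay below the array medians on all arrays. For proliferation, 7 of 7 genes had higher values and 0 were called, with list means of -0.44 to 0.75 in knockout and -0.89 to 0.37 in control. Goblet cell genes had lower values in 8 of 10 cases with 0 called, with list means of -0.29 to 0.10 in knockout and -0.23 to 0.25 in control. Enterocyte genes had a median difference of -0.02 over 10 genes, 0 of them called, with 3 higher and 7 lower values. Lct lay furthest from 0 among them, at -0.72 (SE 0.15, limma adjusted p = 0.0640). Of 9 hormone-cell genes, 2 were called lower, where 0.171% of all genes were. They were Gip, an incretin gene, at -0.76 (SE 0.11) and Sst, the somatostatin gene, at -0.71 (SE 0.12; limma adjusted p = 0.0191 and 0.0296). The list had 8 lower values and 1 higher, with a median of -0.39. Sct at -0.01 (SE 0.09), Neurog3 at -0.01 (SE 0.23) and Pyy at 0.02 (SE 0.25) hardly differed. Omission of any 1 of knockouts 2 and 4 or controls 1, 2 and 4 ended the call of Gip, and omission of any array but knockout 1 ended that of Sst. With the mean of the proliferation and Paneth cell lists as a covariate, the differences were 1.203 (SE 0.11) for Oit1, -0.31 (SE 0.09) for Fam3c, 0.42 (SE 0.14) for Fam3b and -0.01 (SE 0.09) for Fam3a. The part of these other markers in the family's values was not tested. Pancreas markers were read too, because the Fam3b product was first described in pancreatic islets. Ins2, the insulin gene, had intensities of 22.9 to 32.6 on all arrays, below the array medians. Cpa1 (25.5 to 43.0) also lay below them, while Cela1 (50.3 to 66.3) and Ctrb1 (61.9 to 81.1) lay above them on all arrays. The pancreas list had a median difference of 0.00315 over 4 genes.

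Genes beside the family members on the chromosome were set against the members, since these genes were chosen by position alone. The 3 nearest measured protein-coding genes on either side of each member gave 24 genes, and 0 were called, against 0.343% of all genes. At so low a share, a count of 0 says little about 24 genes. At an unadjusted p under 0.05 there were 4 (16.7%), against 12.1% of all genes. All 6 neighbours of Oit1 on chromosome 14 had values below 0, with a median of -0.14. Directly beside it, Fam107a was at -0.13 (SE 0.09) and Cfap20dc at -0.10 (SE 0.11), with limma adjusted p of 0.608 and 0.788. The next gene on the Fam107a side, Acox2, a peroxisomal oxidase of bile acid intermediates and branched fatty acids, was at -0.45 (SE 0.16, limma adjusted p = 0.297). None of the 6 had a higher mean in knockout.

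The 18 neighbours of the other members had values between -0.30 and 0.17. The lowest was that of Cped1, the second gene from Fam3c, at -0.30 (SE 0.23, limma adjusted p = 0.656). Tmprss2, a serine protease gene of epithelia beside Fam3b on chromosome 16, was at 0.04 (SE 0.10) and Bace2, an aspartyl protease gene on the other side, at -0.21 (SE 0.09), with limma adjusted p of 0.912 and 0.376. Beside Fam3c on chromosome 6, the ligand gene Wnt16 was at -0.20 (SE 0.13) and the receptor phosphatase gene Ptprz1 at 0.11 (SE 0.12). Beside Fam3a on chromosome X, Ikbkg, a subunit gene of the kinase that activates NF-kappaB, was at -0.05 (SE 0.07) and Lage3 at -0.14 (SE 0.13).

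**Figure D4:**
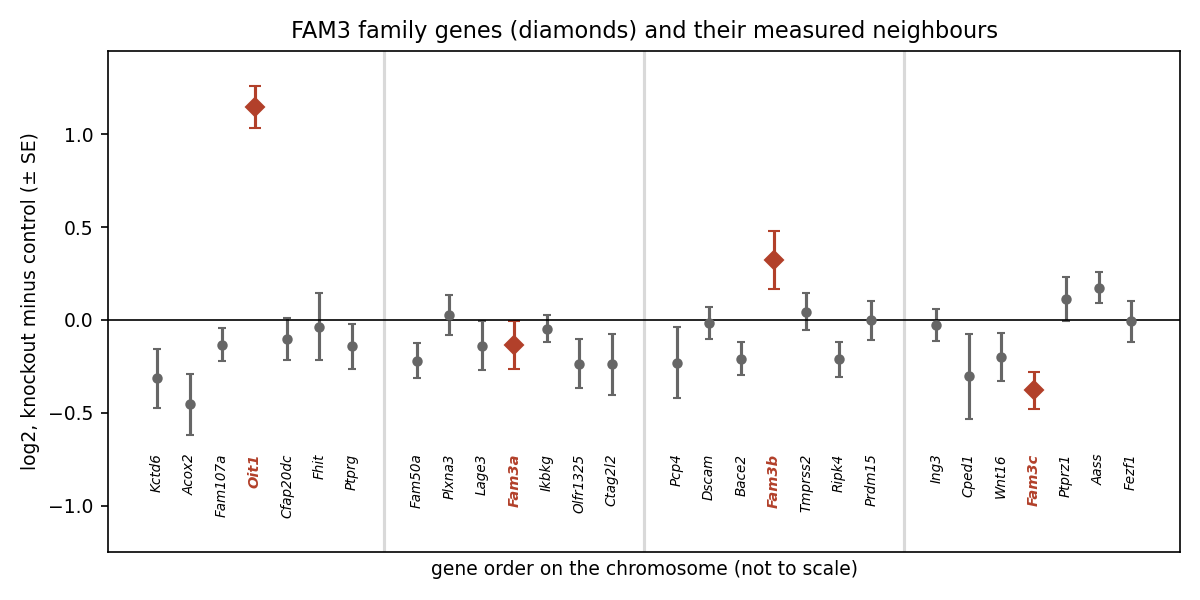
Difference in log2 intensity, knockout minus control (± SE), of the 4 family genes (diamonds) and of the 3 nearest measured genes on either side (circles), in chromosome order and not to scale. Oit1 stands at 1.15 among 6 neighbours between -0.45 and -0.04.

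Receptors and partners described for the family gave no called gene. The 6 lists held 40 measured genes of 48, and 0 were called under limma, against 0.343% of all genes. At an unadjusted p under 0.05 there were 11 (27.5%), against 12.1% of all genes, and the median difference was -0.01. Human FAM3D has been described as a ligand of formyl peptide receptors, which guide neutrophils. Of this receptor family 4 of 7 mouse genes were measured, and Fpr2 was at 3.34 ± 0.22 in knockout arrays and 3.91 ± 0.58 in control arrays (SD, n = 5 each) on the log2 scale, a difference of -0.57 (SE 0.23, limma adjusted p = 0.355). Fpr-rs3 was at -0.26 (SE 0.14) and Fpr-rs6 at 0.13 (SE 0.11). These are dim probe sets of closely related genes, and their probes may not tell the relatives apart. Without knockout 1 and control 5 together, Fpr2 was called, at -0.85 (SE 0.16, limma adjusted p = 0.0450). That fit called 186 of all genes, against 76 with all arrays. Control 5 had the lowest Fpr2 value of all arrays, at 3.0 on the log2 scale, so its omission widens the difference. Neutrophil and myeloid markers had a median difference of -0.04 over 7 genes with 0 called, 3 with higher and 4 with lower values. S100a8, a defining gene of neutrophils, was the dimmest of them, with intensities of 6.7 to 11.2. Itgam was the brightest, with 72.5 to 152.5, and was at 0.33 (SE 0.14).

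ILEI has been described to act through the leukaemia inhibitory factor receptor and STAT3. Lifr itself was at -0.33 (SE 0.16) and Il6st, its partner chain, at 0.02 (SE 0.12). Socs3, a feedback inhibitor gene that STAT3 switches on, had higher values in all knockout arrays, at 7.87 ± 0.19 in knockout arrays and 7.33 ± 0.34 in control arrays (SD, n = 5 each), a difference of 0.54 (SE 0.16, limma adjusted p = 0.180). Stat3 was at 0.25 (SE 0.09, limma adjusted p = 0.296), and its groups did not overlap either. Osmr, the oncostatin M receptor gene, was at -0.71 (SE 0.20, limma adjusted p = 0.168), and it was called without knockout 1, at -0.87 (SE 0.17, limma adjusted p = 0.0359). Knockout 1 was the highest knockout array in Osmr, at 6.62, and the fit without it called 268 of all genes, against 76 with all arrays. Jak2, a kinase gene of the same route, was at -0.36 (SE 0.12). Of the 7 genes 3 had higher and 4 lower values.

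FAM3 proteins share a globular domain with the hyaluronan-related proteins CEMIP and CEMIP2 and the glycosyltransferase POMGNT1. Cemip, which takes part in hyaluronan breakdown, was at 6.42 ± 0.81 in knockout arrays and 7.44 ± 1.02 in control arrays (SD, n = 5 each), a wide spread in both groups, with a difference of -1.02 (SE 0.47, limma adjusted p = 0.417). Cemip2 was at 0.34 (SE 0.12) and Pomgnt1 at 0.16 (SE 0.14).

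Of the FGF receptor list, which was taken because FAM3B has been tied to these receptors in frog embryos, 0 of 6 were called, with Fgfr3 at -0.54 (SE 0.15, limma adjusted p = 0.162), Fgfr2 at -0.15 (SE 0.15) and Fgfr4 at 0.11 (SE 0.11). FAM3A and FAM3C have been described to act on AKT through ATP receptors and calmodulin. There 0 of 7 measured genes of 11 were called. P2ry1, an ATP and ADP receptor gene, was at -0.25 (SE 0.09, limma adjusted p = 0.272) with groups that did not overlap, Foxo1, a transcription factor gene held back by AKT, at -0.27 (SE 0.11) and Akt1 at 0.21 (SE 0.13). In the list of TGF-beta signalling and epithelial-to-mesenchymal transition, the setting in which ILEI was described, 0 of 13 were called and the median was 0.07. Tgfbr2 was at 0.26 (SE 0.11), Tgfbr1 at -0.22 (SE 0.10) and Vim, the vimentin gene of mesenchymal cells, at 0.24 (SE 0.18). Cdh1, the E-cadherin gene of epithelia, was at 0.05 (SE 0.10), and Pcbp1, which encodes a repressor of Fam3c translation, at 0.07 (SE 0.10).

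The genes whose values over the 10 arrays were most like those of Oit1 were found by the root-mean-square difference between profiles, each centred on the gene's mean. The 8 nearest were Stom (0.28), Fdps (0.28), Lgals3bp (0.29), Ociad2 (0.30), Hsd17b6 (0.30), Steap1 (0.31), Fst (0.31) and Rhbdl2 (0.31), where the median over all genes was 0.62. Since most of a profile is the difference between groups, this is a description of the same contrast. The differences between knockout and control were 1.05 (SE 0.16) for Fdps, an enzyme gene of isoprenoid synthesis, 0.93 (SE 0.15) for Stom, the gene of the membrane protein stomatin, and 0.88 (SE 0.15) for Ociad2. They were 0.82 (SE 0.12) for Hsd17b6, a steroid and retinol dehydrogenase gene, 0.72 (SE 0.12) for Steap1, of a metalloreductase family, and 0.78 (SE 0.18) for Rhbdl2, a membrane protease gene. Lgals3bp, a secreted galectin ligand, was at 0.73 (SE 0.14) and Fst, the gene of the activin-binding follistatin, at 0.64 (SE 0.13). All 8 had knockout arrays above all control arrays, where 1.2% of all genes did. Of the 8, 5 were called higher, all but Lgals3bp, Fst and Rhbdl2, where 0.171% of all genes were. As the 8 were chosen by a profile that holds this contrast, nothing is read from these counts. Omission of knockout 2 or of knockout 4 ended each of these 5 calls. In all, 3 of 10 omissions ended the call of Hsd17b6, 6 that of Fdps, 7 that of Ociad2 and 8 those of Stom and Steap1. A numbered gene model with as near a profile is not named. The profile of Stom differed from that of Oit1 most visibly at knockout 1, where Stom was close to its own mean over all arrays.

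**Figure D5:**
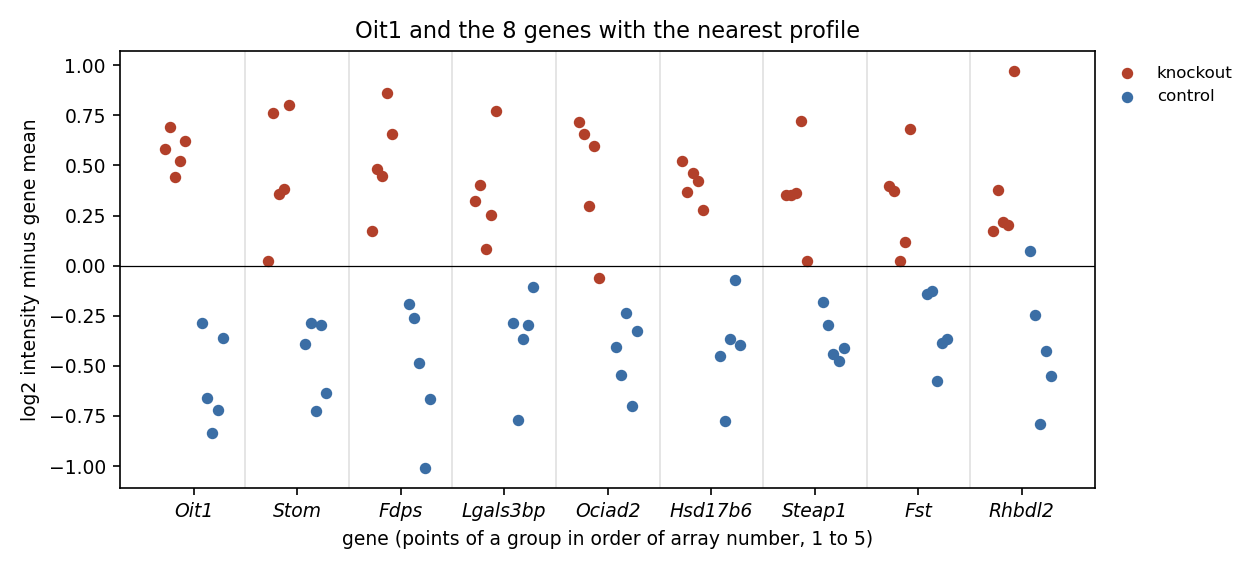
Log2 intensity minus the gene's mean over the 10 arrays, for Oit1 and the 8 genes nearest to it by root-mean-square difference (0.28 to 0.31), with knockout arrays left of control arrays within each gene. In all 9 genes the knockout points lie above the control points.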

How the data were processed

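Total RNA of 10 jejunum samples, 5 knockout and 5 control, was hybridised to Affymetrix whole-transcript arrays from 400 ng of RNA, per the labels' protocols. Per the submitters' processing notes, the authors used Affymetrix Expression Console 1.4.1.46 and RMA, and they deposited linear intensity values (1.8 to 15278.7). RMA brings arrays to a shared distribution, so a shift common to most genes would not be seen. Further settings of that step were not stated. Precision is limited by the number of arrays.

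Log2 was taken of the deposited intensity. Of 41345 probe sets, 23521 had 1 gene symbol in GEO's platform annotation, 1814 had several and 16010 had none; only the first kind was used. Each gene was represented by its brightest probe set, which left 22180 genes, and 21994 were matched by Entrez identifier to RefSeq (GRCm38.p6), used for names, gene order and promoter windows. RefSeq promoters matched 3 of the 4 members, not Fam3b.

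Groups, taken from the sample titles, were compared over all genes with limma 3.58.1 in R 4.3.3 (lmFit, eBayes, Benjamini-Hochberg, adjusted p under 0.05), which was tested on simulated data. For the family members, differences, errors and calls from this fit are descriptions, because the same contrast led to their choice, and no p-value is printed for them. The members, the gene lists, the neighbours, the alternatives and the naming rule were chosen with earlier results of these data known. The rule names the members and Pcyt1a, the 3 smallest p of each pathway list, the genes directly beside each member, the 8 nearest profiles to Oit1, and any called list gene or neighbour. Acox2, Cped1, Lifr, Il6st, Stat3, Cdh1, Pcbp1 and the marker genes stand outside it and were chosen after their values were seen. Alternatives were array centring, quantile normalization, a filter that drops the dimmest 30% of genes, averaging of probe sets, trend and robust fitting, array weights, a replicate block, 2 marker covariates and omission of arrays.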

Additional observations from a re-analysis of the deposited data

Results flagged for a closer look

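A sample far from the others of its group was looked for in 39 genes, which makes 78 groups of 5 arrays, with Dixon's criterion, by which chance alone marks about 1 in 20 groups. It marked 6. Fam3a was highest in knockout 5, at 7.36 on the log2 scale, with the next knockout array at 7.01. Fpr-rs3 was highest in knockout 1 (4.83, next 4.33). Knockout 5 was the highest knockout array also in Socs3 (8.21, next 7.84), Tgfbr2 (7.58, next 7.34) and Rhbdl2 (8.002, next 7.41). Tgfbr1 was lowest in knockout 2 (6.44, next 6.74). Oit1, Fam3b and Fam3c had no such array in either group.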

How the results depend on the processing

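All 4 member differences moved by less than the spread within groups under 20 alternatives. Some of these could not move an estimate: the filter on dim genes, averaging of probe sets, trend and robust fitting, and the replicate block. Each member had 1 probe set and the replicate numbers were balanced over the groups, so these alternatives are no sign of stability. With 1 array left out, differences were 1.08 to 1.22 for Oit1, -0.43 to -0.33 for Fam3c, 0.20 to 0.40 for Fam3b and -0.22 to -0.03 for Fam3a. The count of called genes, 76, was 142 with array weights, 27 with the replicate block, 3 with the ileum covariate, 186 without knockout 1 and control 5 together, and 11 to 268 with 1 array left out. Leaving out knockout 1, 2, 3 or 4 gave 268, 11, 29 and 12, and leaving out control 1, 2, 3, 4 or 5 gave 18, 16, 50, 15 and 36; the cause was not tested. Pathway list genes called, 0 as reported, were 1 with the replicate block (Cemip at -1.02, SE 0.14, limma adjusted p = 0.0490), 0 to 1 with 1 array left out (Osmr, without knockout 1) and 2 without knockout 1 and control 5 (Osmr and Fpr2). Over these alternatives the adjusted p ran from 0.0359 to 0.855 for Osmr, 0.0450 to 0.791 for Fpr2 and 0.0490 to 0.90 for Cemip. Called neighbours stayed at 0 throughout. Same-numbered knockout and control arrays had correlations of their deviations between -0.135 and 0.125, so the replicate numbers were not taken as pairs. Signal near background limits the Fpr genes. No member had another probe set with a single gene symbol to compare, and probe sets with several symbols were not used.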
